A study of Danio rerio with 2 samples.

Results

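Rab GTPases are the small GTP-binding proteins that give membranes of the secretory and endocytic routes their identity. Genes were taken as Rab genes when their symbol was rab followed by a number and did not belong to a regulator or effector named after a Rab, with a mean of at least 0.5 FPKM over both libraries. FPKM counts fragments per kilobase of gene, scaled to the depth of the library. The rule gave 64 genes, and 63 remained after rab3ip was moved to the regulators, because it encodes an exchange factor and not a GTPase. They belong to 35 Rab numbers and come from 21699 genes listed in at least 1 library, 17023 of which reach the same level.

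A Rab is switched on when an exchange factor loads it with GTP and switched off when a GTPase-activating protein makes it hydrolyse that GTP. In its active form it sits on one kind of membrane through lipid anchors at its tail and recruits effectors such as motors, tethers and golgins. GDP dissociation inhibitors take the inactive form off the membrane and return it through the cytosol. rab1, rab2, rab6, rab18 and rab30 act at the endoplasmic reticulum (ER) and Golgi. rab5, rab7 and rab11 mark early, late and recycling endosomes, and rab3, rab8, rab10 and rab27 act on carriers bound for the plasma membrane.

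Both groups came from zebrafish crosses of Tg(kdrl:GFP); gbf1tsu3994/+ fish at 44 hours post fertilization. gbf1 encodes an exchange factor for ARF GTPases, which act beside Rabs at the Golgi. The sibling group was 1 library of GFP+ cells sorted from embryos of normal morphology, and the mutant group was 1 library from embryos of mutant morphology. The labels give the groups by morphology and not by the genotype of each embryo, so the normal siblings are not stated to be of a single genotype. GFP is driven by the kdrl promoter in all embryos, the number of embryos pooled is not given, and the nature of the tsu3994 lesion is not given in the labels. With 1 library per group there was no test between conditions, and every difference is between these 2 libraries.

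The libraries held 5657525 (sibling) and 6169373 (mutant) expected counts. The Rab genes took 0.171% and 0.214% of them. gbf1 itself was at 3.44 and 6.13 FPKM (161 and 364 counts), which says nothing of the lesion, since a mutated transcript can still be read. The labels call the cells endothelial, but globins dominated both libraries, with hbae1.2 at 159111 and 118855 FPKM. kdrl, whose promoter drove the sort, was at 6.38 and 21.3 FPKM and cdh5, which encodes VE-cadherin, at 1.96 and 9.03. Of 16 endothelial markers, 12 were at least 2-fold higher in the mutant library, and their summed level was 79.9 and 279 FPKM. Of 10 mural and mesenchymal markers, 6 were at least 2-fold higher (257 and 360 FPKM), as were 3 of 11 myeloid markers (658 and 936 FPKM). Most of the myeloid sum was lyz, at 582 and 823 FPKM (log2 fold 0.50). By log2 fold, 7 of the 11 myeloid markers had higher values in the mutant library and 4 had lower ones. Skeletal muscle markers went the other way from the endothelial ones, with 12 of 13 at least 2-fold lower and summed levels of 909 and 250 FPKM. For scale, 7.08% of the 17023 genes rose past the 2-fold limit in the mutant library and 1.72% fell past it. mitf, acta2 and the scarcer of 2 slc4a1 genes were not listed in the sibling library, and 1 mfap4 gene was not listed in the mutant library. Fewer cells of a type and less RNA per cell cannot be told apart in such sorted pools. The median gene stood 1.18-fold higher in the mutant library by FPKM + 1 (log2 fold 0.23) and 1.22-fold by expected counts per library total, so a Rab gene near those values followed the bulk of genes.

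Levels spanned a wide range. The most abundant Rab gene was rab5c, an early endosome GTPase, at 110 (sibling) and 115 (mutant) FPKM. rab10, which acts on exocytic carriers, followed at 95.4 and 98.4 FPKM. Next were a rab5a gene (ENSDARG00000007257) at 75.2 and 60.8 FPKM and rab1b, an ER-to-Golgi GTPase, at 50.5 and 85.3 FPKM. rab2a, which acts between Golgi and ER, was at 46.9 and 83.5 FPKM. These 5 genes held 40.9% and 39.0% of the summed Rab FPKM. At the lower end, 29 of the 63 genes had a mean below 5 FPKM.

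**Figure D1:**
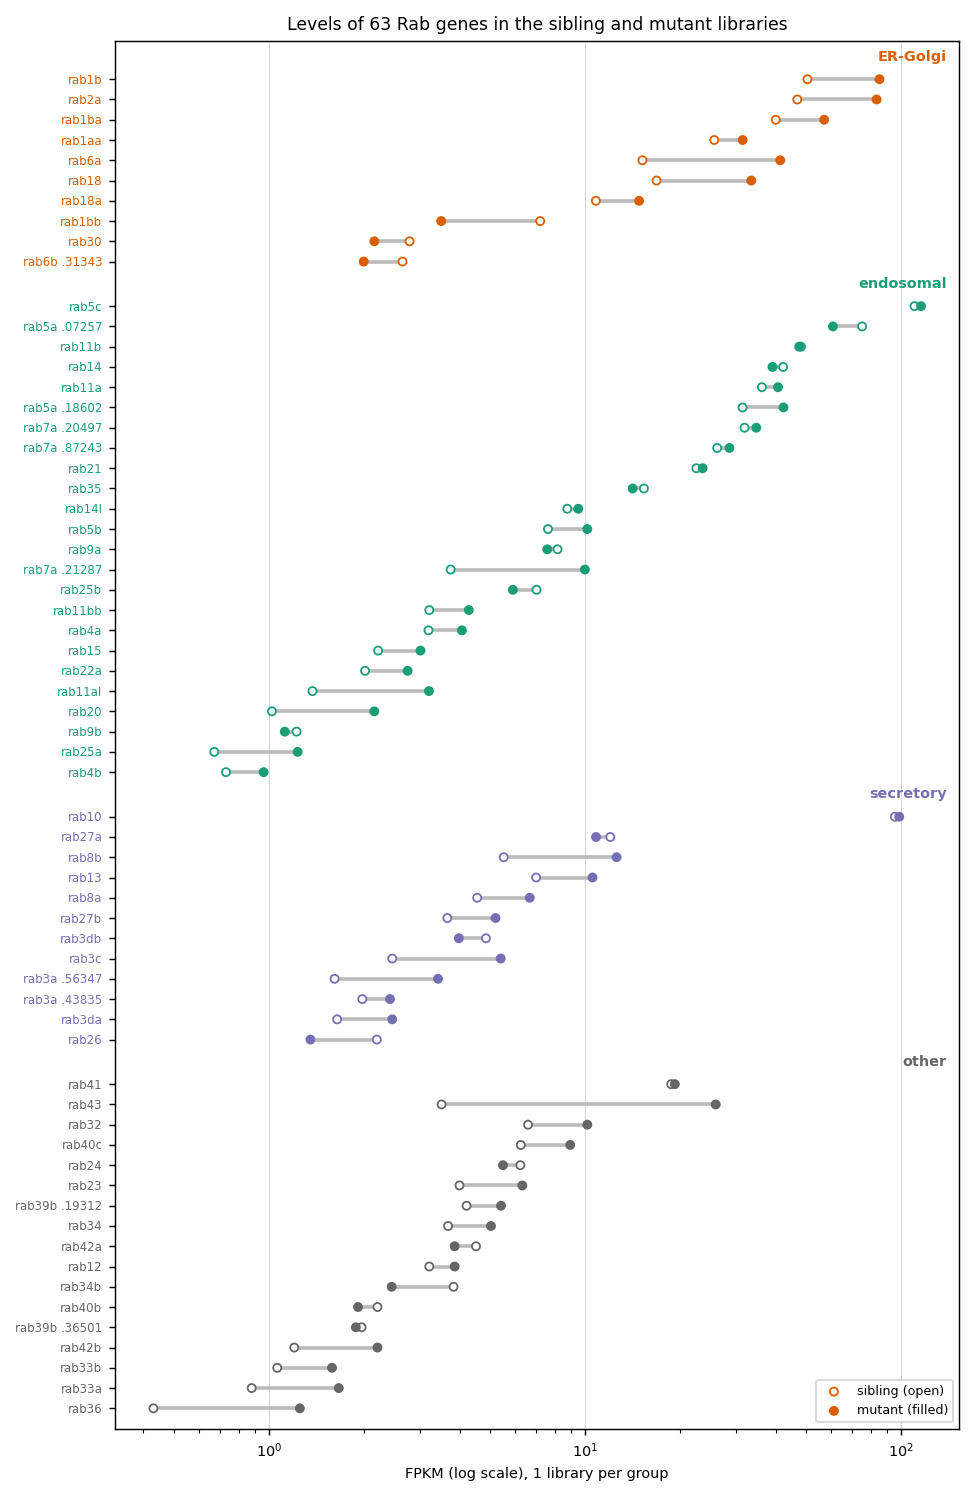
FPKM (log axis) of the 63 Rab genes in the sibling library (open points) and the mutant library (filled points), 1 library per group, grouped by class and ordered by mean level. Where genes share a symbol, the last 5 digits of the Ensembl ID follow it. Most pairs of points lie close together, and the longest line belongs to rab43, from 3.51 to 25.9 FPKM.

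The level limit decided little. The members nearest to it were rab36, at 0.43 and 1.25 FPKM, and rab4b, at 0.73 and 0.96. Just outside were rab38c, at 0.56 and 0.43 FPKM, and a rab6b gene (ENSDARG00000034522), at 0.17 and 0.58. The other 3 genes left out were rab44 at 0.44 and 0.27 FPKM, rab19, listed in the sibling library alone at 0.34, and rab39al, listed in the mutant library alone at 0.24.

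By the log2 fold on FPKM + 1, 4 of the 63 Rab genes passed 2-fold upward in the mutant library and 0 passed it downward. Over all 17023 genes the shares were 7.08% higher and 1.72% lower, and 4 of 63 is a share close to the first of these. The 4 were rab43, rab6a, a rab7a gene (ENSDARG00000021287) and rab8b, each from a different class. The median log2 fold of the Rab genes was 0.30, beside 0.23 for all genes, and 34 of the 63 lay above the median gene. By counts, the 95% counting interval of the ratio lay above 1 for 22 genes (background 34.0%) and below 1 for 2 (background 6.97%). Measured against the median gene in place of 1, it lay above for 11 (background 16.9%), below for 7 (background 17.6%) and around it for the other 45. Among the 34 Rab genes with a mean of at least 5 FPKM, 4 were past 2-fold higher (background 6.32% of 7917 genes) and 0 lower (background 0.897%). Of these, the interval lay above 1 for 16 (background 44.5%) and below 1 for 2 (background 9.12%), and above the median gene for 9 (background 20.5%) and below it for 7 (background 26.1%). The share past 2-fold was thus below the background over all 63 genes and above it over these 34, and the shares with intervals below 1 or below the median gene were smaller than the background at both limits.

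rab43, which in human cells acts at the Golgi in its organization and in traffic between Golgi and ER, had the largest difference of any Rab gene. It was at 3.51 (sibling) and 25.9 (mutant) FPKM, with 21 and 168 expected counts. The mutant count, 167.98 before rounding, was not whole. The ratio of counts per library total was 7.34 (95% counting interval 4.65 to 12.2), and the log2 fold was 2.57. Its listed length was the same in both libraries, 1052 bases from 1 transcript, so no difference in length enters its FPKM. Among all 17023 genes, 22 had a larger log2 fold, or 0.129%. The value stayed past 2-fold under every scaling, pseudocount and level limit tried, from 1.86 with a pseudocount of 5 FPKM to 2.85 with one of 0.1 FPKM.

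Among the ER-Golgi Rabs, the 7 genes with a mean above 10 FPKM all had higher values in the mutant library, and the 3 scarcer ones had lower values. Of all 17023 genes, 12033 had a log2 fold above 0, so 7 of 10 is a share close to the background. The cut at 10 FPKM was not among the planned level limits. rab6a, which drives traffic within the Golgi and from the Golgi to the ER, was at 15.2 (sibling) and 41.4 (mutant) FPKM (200 and 498 counts, count ratio 2.28, interval 1.93 to 2.70). It was under the limit with TMM (0.90) and median-of-ratios scaling (0.88). Its log2 fold was 1.39 on deposited FPKM but 1.15 at a common gene length, as its listed length was 2277 (sibling) and 1919 (mutant) bases. rab18, which acts at the ER and on lipid droplets, was at 16.8 and 33.5 FPKM (175 and 379 counts, ratio 1.99, 1.66 to 2.39), just under the 2-fold limit with a log2 fold of 0.96. Its paralog rab18a was at 10.8 and 14.8 FPKM (ratio 1.32, 1.04 to 1.67). rab2a had counts of 578 and 1157 (ratio 1.84, 1.66 to 2.03) and a log2 fold of 0.82. For rab6a, rab18 and rab2a the whole interval lay above the median gene, and for rab18a it did not.

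rab1, the GTPase of ER-to-Golgi vesicle tethering, was represented by 4 genes that did not behave alike. rab1b had counts of 527 and 967 (ratio 1.68, 1.51 to 1.87), with a log2 fold of 0.75. rab1ba was at 40.1 and 57.0 FPKM (692 and 1069 counts, ratio 1.42, 1.29 to 1.56). rab1aa, at 25.6 and 31.5 FPKM, had a ratio of 1.23 (0.97 to 1.55), the same as the median gene. The fourth, rab1bb, was lower in the mutant library, at 7.2 and 3.5 FPKM. Its counts were 55 and 29 (ratio 0.48, 0.30 to 0.77), and its interval did not meet that of any other rab1 gene. Its log2 fold of -0.87 was the lowest of all 63 Rab genes, and it passed 2-fold lower once centred on the median gene, at -1.099. Summed over the 4 genes, rab1 stood at 123 and 177 FPKM, a count ratio of 1.46 (1.37 to 1.56), with rab1bb adding few of the reads.

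The remaining ER-Golgi genes were scarce. rab30, a Golgi Rab, was at 2.78 and 2.15 FPKM (31 and 26 counts, ratio 0.77, 0.44 to 1.34). The rab6b gene that met the level limit (ENSDARG00000031343) was at 2.64 and 1.99 FPKM (24 and 18 counts, ratio 0.69, 0.35 to 1.32). Neither interval excluded 1, so no difference was detectable at this depth.

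Across all 10 ER-Golgi genes the median log2 fold was 0.46, with 1 gene at least 2-fold higher (background 7.08%) and none 2-fold lower (background 1.72%). The interval lay above the median gene for 5 of the 10 and below it for 1, where 16.9% and 17.6% of all genes did so. Intervals are narrower for abundant genes, and among genes with a mean of at least 5 FPKM it lay above for 5 of 8 ER-Golgi Rabs, with 20.5% of all genes of that level. Summed, the class went from 218 to 355 FPKM, a count ratio of 1.63 (1.55 to 1.71), with most of the reads from rab1b, rab1ba and rab2a. Its share of the summed Rab FPKM went from 23.6% to 31.2%. In the same libraries the endothelial markers had a median log2 fold of 1.39, the mural and mesenchymal markers 1.14, the skeletal muscle markers -1.77 and the erythroid markers -0.31. The part of these markers in the Rab differences was not tested.

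**Figure D2:**
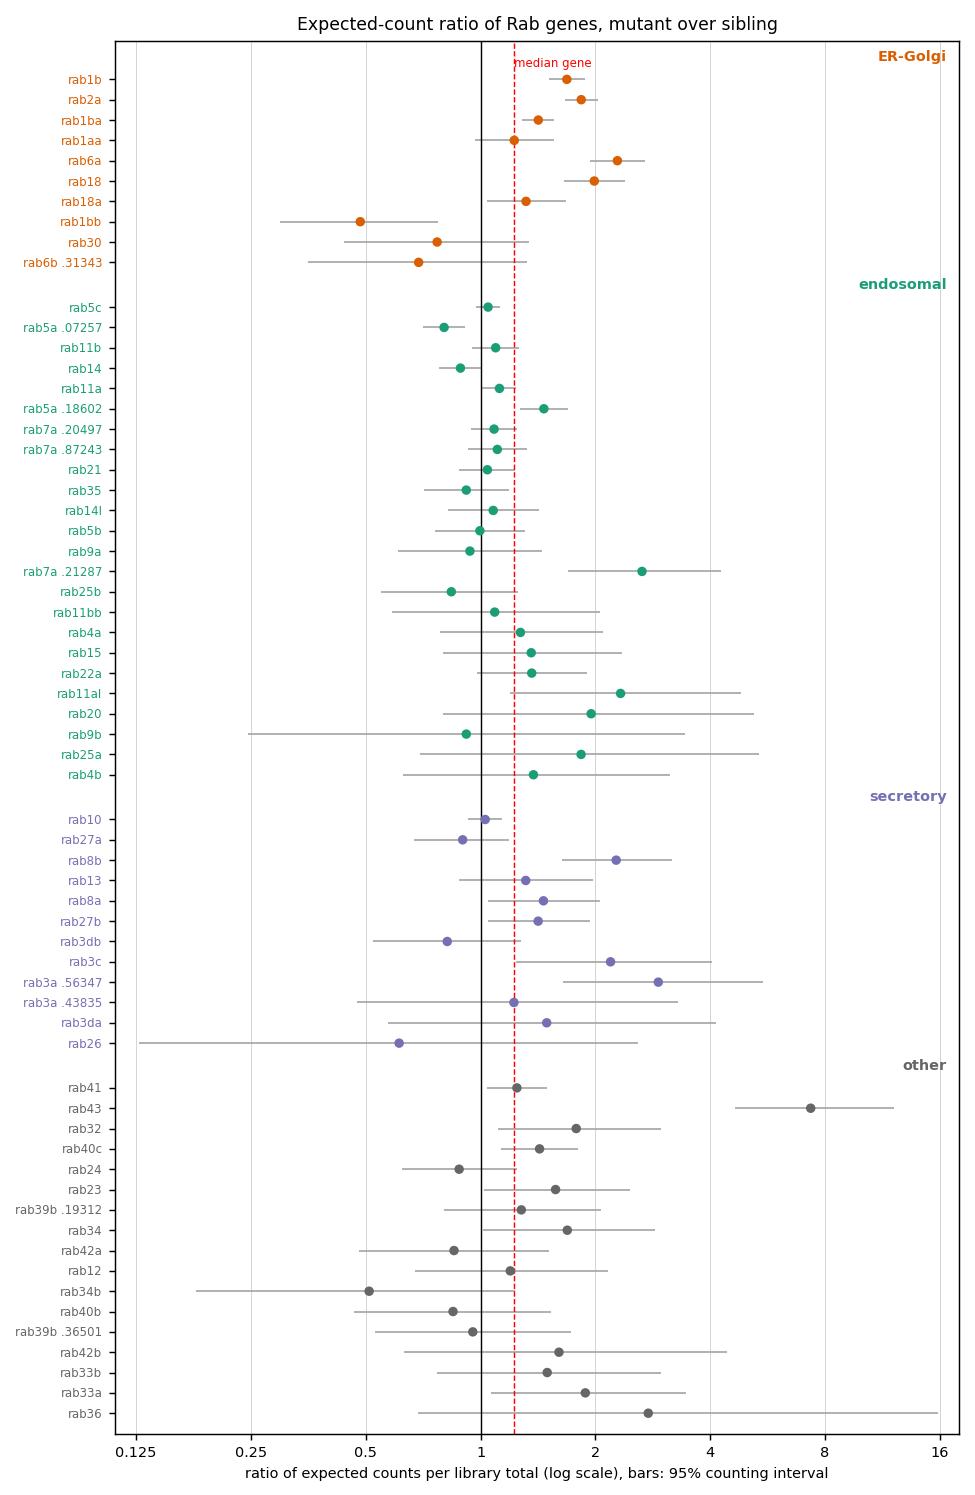
Ratio of expected counts per library total, mutant over sibling (log axis), for the 63 Rab genes, with 95% counting intervals as bars. The black line is a ratio of 1 and the dashed red line the median gene at 1.22. rab1b, rab1ba, rab2a, rab6a and rab18 lie right of the red line with their whole intervals, rab1bb lies left of both lines, and most endosomal points lie left of the red line.

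The 24 endosomal Rab genes had a median log2 fold of 0.14, which is below that of all genes and turns to between -0.15 and -0.02 when centred, scaled by TMM or median of ratios, or rescaled without the 10 highest genes. The interval lay above the median gene for 2 of the 24 (background 16.9%). It lay below for 4 (background 17.6%), which were rab5c, a rab5a gene, rab14 and rab35. Abundant genes of the class mostly had nearly equal values in both libraries, apart from the rab5a genes described below. rab5c had 1430 and 1631 counts, a ratio of 1.05 (0.97 to 1.12). rab11b and rab11a, which recycle cargo to the surface, were at 48.1 and 47.5 and at 36.2 and 40.7 FPKM, with ratios of 1.095 (0.95 to 1.26) and 1.12 (1.01 to 1.24). rab14, which links early endosomes and Golgi, was at 42.3 and 39.1 FPKM (ratio 0.89, 0.78 to 1.01). rab21 and rab35, of early endosomes and of recycling, had ratios of 1.04 and 0.92, and both of their intervals held 1. Summed, the class went from 490 to 513 FPKM, and its share of Rab FPKM went from 53.1% to 45.1%.

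Within this class the 2 genes that stood above the median gene had close relatives that did not. The rab7a gene ENSDARG00000021287 was at 3.75 (sibling) and 9.97 (mutant) FPKM (27 and 78 counts, ratio 2.65, 1.69 to 4.27), a log2 fold of 1.21. It was just under 2-fold when centred on the median gene (0.97), with TMM (0.997) and with median-of-ratios scaling (0.99), and at 0.77 with a pseudocount of 5 FPKM. rab7a drives maturation of late endosomes and their fusion with lysosomes. The other genes of that symbol, ENSDARG00000020497 and ENSDARG00000087243, were far more abundant and nearly level, at 31.9 and 34.8 and at 26.1 and 28.6 FPKM. Their ratios were 1.08 (0.94 to 1.25) and 1.11 (0.92 to 1.32), so the summed rab7 ratio was only 1.16 (1.04 to 1.29).

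The rab5a genes parted in opposite directions. ENSDARG00000007257 had 550 and 481 counts (ratio 0.80, 0.71 to 0.91), and ENSDARG00000018602, at 31.4 and 42.4 FPKM, had 308 and 492 (ratio 1.46, 1.27 to 1.69). Summed over its 4 genes, rab5 was at 224 and 229 FPKM (ratio 1.04, 0.99 to 1.101), nearly the same total from a different mix of genes. rab5b was at 7.62 and 10.2 FPKM, with a count ratio of 0.996 (0.76 to 1.31), and its listed length was 2376 and 1793 bases. Of the scarcer genes, rab11al was at 1.37 and 3.20 FPKM (13 and 33 counts, ratio 2.33, 1.19 to 4.82). The remaining 11 endosomal genes had log2 folds from -0.22 (rab25b) to 0.64 (rab20), and every one of their count intervals held 1. rab25b, an epithelial recycling Rab, was at 7.01 and 5.90 FPKM (ratio 0.84, 0.55 to 1.25). Its paralog rab25a was at 0.67 and 1.23 FPKM (ratio 1.83, 0.69 to 5.37). Of 11 epidermal markers, 5 were at least 2-fold lower (background 1.72%), with summed levels of 1229 and 760 FPKM. A link of the rab25 genes to epidermal cells was not tested.

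The secretory class had a median log2 fold of 0.40 over 12 genes, 1 of them at least 2-fold higher (background 7.08%). rab8b, which acts on carriers to the plasma membrane and at the cilium, was at 5.52 (sibling) and 12.6 (mutant) FPKM (53 and 131 counts, ratio 2.27, 1.64 to 3.18). Its log2 fold was 1.06 and fell under 2-fold, to 0.82, once centred on the median gene. Its paralog rab8a was at 4.55 and 6.67 FPKM (59 and 94 counts, ratio 1.46, 1.04 to 2.06), with an interval that overlapped that of rab8b. The most abundant secretory gene, rab10, had 703 and 788 counts, a ratio of 1.028 (0.93 to 1.14). rab13, which acts at tight junctions, was at 6.99 and 10.5 FPKM (ratio 1.31, 0.88 to 1.98). Of the 12 genes, 3 had an interval wholly above the median gene (background 16.9%), which were rab8b, rab3c and a rab3a gene (ENSDARG00000056347). The interval lay wholly below it for 2, rab10 and rab27a (background 17.6%).

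The rab3 genes, known for synaptic vesicles and regulated secretion, were all scarce. rab3c was at 2.45 and 5.40 FPKM (18 and 43 counts, ratio 2.19, 1.24 to 4.04). The rab3a gene ENSDARG00000056347 had 16 and 51 counts (ratio 2.92, 1.64 to 5.49), and its log2 fold of 0.76 on deposited FPKM became 1.07 at a common gene length. rab3db was at 4.85 and 3.98 FPKM, with a ratio of 0.82 (0.52 to 1.27). The neural markers, whose summed level was 394 and 388 FPKM, had a median log2 fold of -0.19. Of the 14, 0 were past 2-fold upward (background 7.08%) and 1 was past it downward (background 1.72%). Their counting interval lay above 1 for 3 (background 34.0%) and below 1 for 5 (background 6.97%). A link of the rab3 genes to neural cells was not tested. rab27a and rab27b, of secretory granules and melanosomes, had ratios of 0.90 (0.67 to 1.19) and 1.42 (1.05 to 1.93). Their counts were not whole, as happens where reads that match several genes are divided.

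The class of other Rabs, with rab43 in it, had a median log2 fold of 0.32 over 17 genes. rab41, the most abundant, was at 18.7 and 19.2 FPKM but had 207 and 281 counts (ratio 1.24, 1.04 to 1.497), with listed lengths of 1916 and 2325 bases. rab32, a Rab of melanosomes and related organelles, was at 6.59 and 10.2 FPKM (ratio 1.78, 1.11 to 2.98). Its log2 fold of 0.55 was under the 2-fold limit, and its counts of 27.4 and 53.21 were not whole. The 6 pigment cell markers had a summed level of 13.2 and 9.01 FPKM, and none was at least 2-fold higher (background 7.08%). Of these, sox10 was higher by counts (ratio 2.02, 1.29 to 3.22), and the other 5 had lower values. A link of rab32 to pigment cells was not tested. rab40c, an adaptor of ubiquitin ligases, was at 6.25 and 8.96 FPKM (ratio 1.43, 1.13 to 1.80). rab23, known from Hedgehog signalling and cilia, was at 4.0 and 6.32 FPKM (ratio 1.57, 1.02 to 2.46), and rab33a was at 0.88 and 1.66. Only rab43 had an interval wholly above the median gene in this class (background 16.9%). None of the 17 had one wholly below it (background 17.6%).

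**Figure D3:**
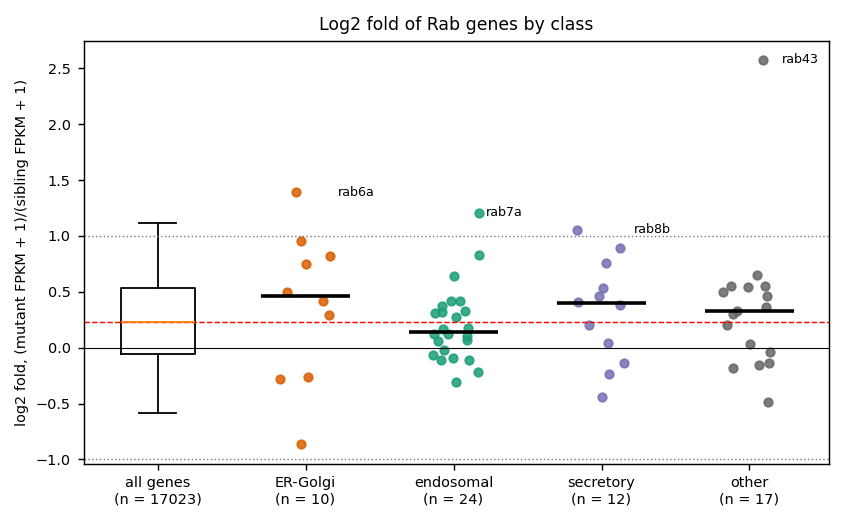
Log2 fold of (mutant FPKM + 1)/(sibling FPKM + 1) for the Rab genes by class, each point 1 gene and each black bar the class median. The box shows all 17023 genes (quartiles, whiskers at percentiles 5 and 95), the dashed red line their median of 0.23, and the dotted lines the 2-fold limits. The 4 labelled genes are those at least 2-fold higher, and no point lies below the lower limit.

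Set beside each other, the class medians of 0.46, 0.40, 0.32 and 0.14 (ER-Golgi, secretory, other and endosomal) lay within the quartiles of all genes, -0.06 and 0.54. Single genes spread more widely than medians of several genes, so this does not show that a class followed the bulk. At a mean of at least 5 FPKM the ER-Golgi median was 0.62, above the upper quartile of 0.52. At the limit of 0.5 FPKM the ER-Golgi median exceeded the endosomal one by 0.31. This difference was 0.28 to 0.55 under other scalings, pseudocounts and level limits. Between the means of these classes, 0.37 and 0.21, it was 0.16. It exceeded the secretory one by 0.06, which turned to -0.04 with a pseudocount of 0.1 FPKM, so these classes were not separated by their medians. The summed count ratio was 1.63 (1.55 to 1.71) for ER-Golgi, 1.17 (1.08 to 1.27) for secretory and 1.06 (1.025 to 1.104) for endosomal Rabs. Intervals of sums hold read counting and no spread between genes. Most ER-Golgi reads of the sibling library were from rab1b, rab1ba and rab2a (527, 692 and 578 of 2532 counts). Of the 10 ER-Golgi genes, 3 had a log2 fold below 0. Most secretory reads of the sibling library were from rab10, and without it the other 11 secretory genes had a ratio of 1.40 (1.24 to 1.59), an interval that meets that of the ER-Golgi Rabs.

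Of the 35 Rab numbers, 18 had several genes. Among their 44 pairs of genes, 10 had counting intervals that did not overlap, and these fell in 5 numbers, rab1, rab3, rab5, rab6 and rab7. That is 22.7% of these pairs, beside 19.2% of all pairs of the 17023 genes, 32.0% of pairs of genes with a mean of at least 5 FPKM and 17.4% of the 1909 pairs of Rab genes with different numbers, so a share of this size is common. The rab1 pairs all involve rab1bb, and the rab7 pairs the scarce rab7a gene. For rab6, the interval of rab6a lay above that of the scarce rab6b gene. The intervals of rab18 and rab18a overlapped, as did those of the rab8 and rab27 genes. By summed counts, rab43, rab6, rab8, rab2, rab18 and rab1 lay above the median gene with their whole interval. rab5, rab10, rab11, rab14 and rab35 lay below it. Among the 17023 single genes the shares were 16.9% above and 17.6% below, so intervals on either side are common.

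**Figure D4:**
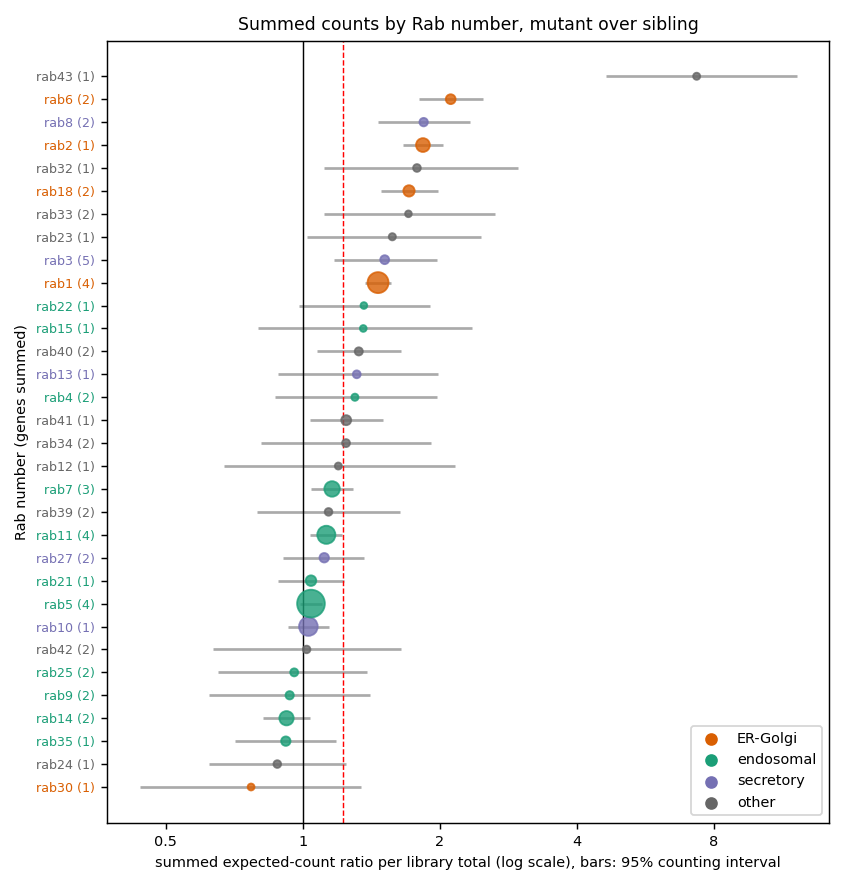
Summed expected-count ratio per library total, mutant over sibling (log axis), for each Rab number with at least 20 counts in a library, with 95% counting intervals. The number of genes summed is in parentheses and the point area grows with the summed sibling FPKM. rab43 stands at 7.34, rab6, rab2, rab18 and rab1 between 1.46 and 2.11, and the abundant rab5 at 1.04.

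The regulators and effectors of Rabs were taken as 152 listed symbols, of which 137 matched and gave 128 genes above the level limit. Of these, 11 passed 2-fold upward and 0 downward, against 7.08% and 1.72% of all genes, and the median log2 fold was 0.26. The shared carriers of all Rabs differed little. gdi2, the most abundant GDP dissociation inhibitor, was at 96.0 and 126 FPKM (ratio 1.31, 1.22 to 1.40). chm, the Rab escort protein that presents new Rabs for lipid attachment, was at 7.0 and 6.82 FPKM. The transferase genes rabggta and rabggtb, whose product attaches those lipids, had ratios of 1.44 (0.94 to 2.23) and 1.45 (1.102 to 1.89). rabac1, a prenylated Rab acceptor of the Golgi, was at 26.4 and 47.6 FPKM (ratio 1.79, 1.56 to 2.06) and was the only one of these 7 genes with its interval above the median gene.

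Among effectors, 5 of 46 genes were at least 2-fold higher, where 7.08% of all genes were. golga5, a golgin that binds rab1, was at 10.3 and 26.4 FPKM (175 and 488 counts, ratio 2.56, 2.15 to 3.06). gorab, a golgin-like partner of rab6, was at 3.71 and 10.9 FPKM (ratio 2.93, 2.09 to 4.198). golga2, the rab1 effector GM130, was at 9.67 and 22.2 FPKM with a ratio of 1.87 (1.55 to 2.26), and its log2 fold of 1.12 became 0.85 at a common gene length. The remaining pair were micall2, a rab13 and rab8 effector at junctions, at 1.35 and 6.81 FPKM (28 and 153 counts, ratio 5.01, 3.33 to 7.79), and mical1, at 0.79 and 2.82.

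Further partners of ER-Golgi Rabs, picked for their known partner after values were seen, had values on both sides of a ratio of 1. uso1, the tether p115 recruited by rab1, was at 33.0 and 42.2 FPKM, with a count ratio of 1.601 (1.42 to 1.81). bicd1, a dynein adaptor that binds rab6, was lower, at 2.17 and 0.70 FPKM (ratio 0.45, 0.27 to 0.75), and the bicd2 gene ENSDARG00000098215 was at 5.29 and 6.77 (ratio 1.27, 1.05 to 1.55). kif20a, a kinesin that binds rab6 and also acts in cell division, was at 43.1 and 32.2 FPKM (ratio 0.75, 0.67 to 0.83). tbc1d20, a GTPase-activating protein for rab1 and rab18, was at 10.5 and 9.09 FPKM (ratio 0.86, 0.63 to 1.19), and usp6nl, one for rab43 in human cells, at 2.45 and 2.41.

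Among exchange factors, 3 of 39 genes (7.69%) were at least 2-fold higher, close to the 7.08% of all genes. rin3, which activates rab5, was at 1.18 and 6.69 FPKM (40 and 246 counts, ratio 5.64, 4.03 to 8.09). A gene of its relative rin2 (ENSDARG00000074589) was at 2.34 and 6.78 FPKM (ratio 1.93, 1.48 to 2.55), and its log2 fold of 1.22 became 0.77 at a common gene length. The other rab5 exchange factors were closer to the median gene, with rabgef1 at a ratio of 1.48 (1.16 to 1.89) and gapvd1 at 1.09 (0.88 to 1.34). rgp1, part of the complex that activates rab6, was at 6.08 and 13.4 FPKM, with a count ratio of 1.59 (1.12 to 2.28) and a log2 fold of 1.028 that became 0.62 at a common gene length. dennd3b, of a family of exchange factors, was at 0.57 and 1.91 FPKM (ratio 1.91, 0.97 to 3.89). The rab18 exchange factor is formed by rab3gap1 and rab3gap2, which had ratios of 1.04 (0.84 to 1.28) and 1.39 (1.14 to 1.69).

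Of 36 GTPase-activating proteins, and beside 7.08% of all genes, 3 (8.33%) were at least 2-fold higher. These were tbc1d16, at 5.47 and 13.5 FPKM (ratio 2.12, 1.604 to 2.81), sgsm3, at 2.56 and 6.83 (ratio 1.90, 1.36 to 2.69), and tbc1d14, at 1.17 and 3.77 (ratio 2.81, 1.57 to 5.29). At a common gene length the log2 folds of tbc1d16 and sgsm3 were 0.98 and 0.76, under the limit. sgsm2, next below the limit, was at 0.96 and 2.72 FPKM (ratio 2.27, 1.26 to 4.245). The most abundant member, rabgap1l, was at 152.5 and 126 FPKM, with a ratio of 0.88 (0.82 to 0.93).

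**Figure D5:**
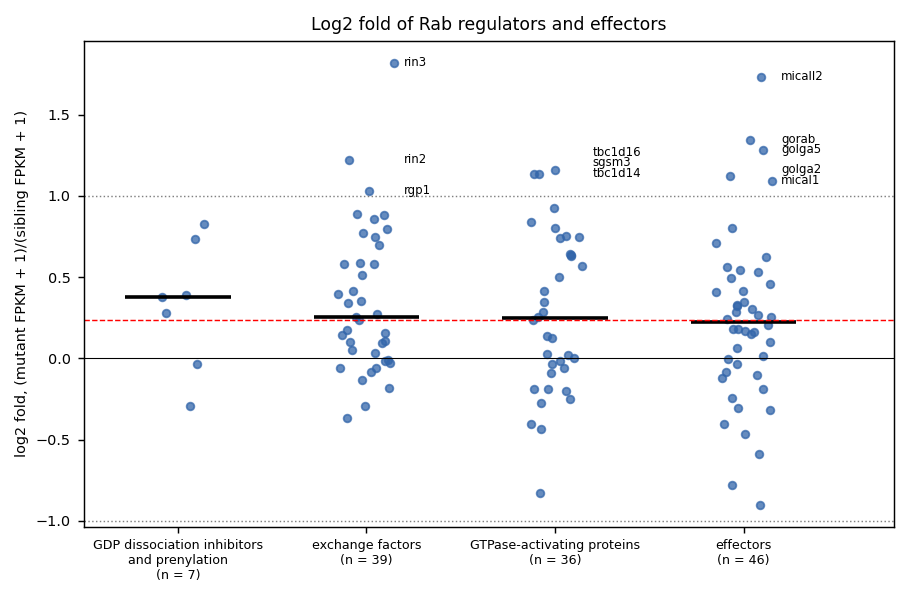
Log2 fold of (mutant FPKM + 1)/(sibling FPKM + 1) for 128 genes of the Rab cycle in 4 lists, each point 1 gene and each black bar the list median. Labelled genes are those at least 2-fold higher, the dashed red line is the median of all genes at 0.23, and the dotted lines are the 2-fold limits. The list medians lie between 0.22 and 0.38.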

How the data were processed

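RNA was sequenced from 1 sibling and 1 mutant library of sorted cells. The tools listed in the submitters' processing notes are RSEM, Bowtie2, BWA and bcl2fastq 2.16, and the build is GRCz10. Their roles are not given. The authors deposited, per gene, an expected count, which is not normalized, and an FPKM value, with no scaling between libraries. Listed gene lengths differ between the libraries where the isoform mix does, by over 10% for 11 of the 63 Rab genes, and this moves FPKM but not counts. Reads that match several genes are divided, and 9 Rab genes had counts that were not whole to within 0.005. The protocol describes no strand marking, so antisense transcripts cannot be told apart.

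A gene listed in 1 table alone was set to 0 in the other. Log2 folds compare FPKM + 1 in the mutant library with FPKM + 1 in the sibling library and so understate differences of low genes, and a gene was called at a log2 fold of at least 1 or at most -1. Count ratios are per library total, with the exact conditional binomial 95% interval of rounded counts (scipy 1.17.1). These intervals hold the counting error alone, and may be too narrow even for that, as reads copied by PCR need not be separate molecules. They hold no variation between pools of embryos, sorts or library preparations, which 1 library per group cannot show. There was no test, SD or p-value, as each group is 1 library. The calculations were tested on simulated counts.

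Symbols came from a table of Ensembl IDs, written in lower case, which named 91.3% of the genes. It gives 72 IDs a Rab symbol, and 68 are in the files. Some symbols lack the paralog letter, so genes sharing one are given with their ID. List entries also matched without their last paralog letter. The members, classes and lists were chosen with earlier results of these data known. The text names all Rab genes past 2-fold, all ER-Golgi genes, the 4 most abundant and the 4 with the largest absolute log2 fold in each other class (at least 20 counts), the members nearest the level limit, the regulators with the largest absolute log2 folds, and gbf1, kdrl and cdh5. Further genes were named after their values were seen. Protein and promoter sequences were not used here. The values of 1 listed regulator are not reported here. Alternatives were other pseudocounts, level limits and scalings, with TMM factors from edgeR 4.0.16.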

Additional observations from a re-analysis of the deposited data

How the results depend on the processing

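Against 4 Rab genes at least 2-fold higher and 0 lower, the counts were 9 and 1 with a pseudocount of 0.1 FPKM, 2 and 0 with one of 5 FPKM, 2 and 1 with TMM, with median-of-ratios scaling and when centred on the median gene, and 3 and 1 when rescaled without the 10 highest genes. They were 6 and 0 in TPM, which added rab18 and rab3c, and 5 and 0 in CPM of the expected counts, which added the rab3a gene ENSDARG00000056347. The gene added as lower was rab1bb each time. The share of all genes past the limit moved with the setting too. Shares at least 2-fold higher were 7.08% as deposited and 14.6% and 1.18% with pseudocounts of 0.1 and 5 FPKM. They were 5.08% with TMM, 4.98% with median of ratios and 3.48% when centred. Without the 10 highest genes the share was 6.46%, in TPM 9.45% and in CPM 9.05%. Shares at least 2-fold lower ranged from 0.294% to 4.02%. rab43 was among the higher genes under all 12 alternatives. Under TMM and median of ratios rab6a, rab8b and the rab7a gene ENSDARG00000021287 dropped under the limit, and that rab3a gene passed it. The median of ER-Golgi Rabs was 0.16 under median of ratios, against 0.46. Its excess over the median of all genes moved less, from 0.23 to 0.16, and the cause of that move was not tested. The median of all genes is 0 under that scaling. It was 0.23 as deposited, 0.35 in TPM, 0.11 without the 10 highest genes and 0.01 under TMM. Over the alternatives, the mean in place of the median included, the ER-Golgi median ranged from 0.16 to 0.62 and the secretory median from 0.14 to 0.52. Of 724 values of single Rab genes under the alternatives, 674 stayed within the counting error of the reported value. Changing the level limit cannot move a gene's own value, so part of this count was fixed beforehand. No called gene changed sign, but the 4 called genes had started at log2 folds of 1.06 or more. Genes not called did change sign under TMM, among them rab5c (0.07 to -0.21), rab10 (0.05 to -0.24) and rab11a (0.17 to -0.11). FPKM at a common gene length was added after seeing the data. It gave 5 higher genes and 0 lower, beside 5.74% and 1.01% of all genes. Also added later were the secretory sum without rab10, a count ratio of 1.40 against 1.17, and differences of class means.

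No paired analysis was possible because each group is 1 library, and for the same reason no replicate was left out. Depth limits the 10 Rab genes under 20 counts in both libraries, whose intervals all hold 1.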

Other observations

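Genes named as Rab-like lie outside the rule and were few. rabl3 was at 3.13 and 4.2 FPKM in the sibling and mutant libraries, the rabl6 gene ENSDARG00000077653 at 3.88 and 4.74, and ift27, a Rab-like subunit of intraflagellar transport, at 2.73 and 4.45. rabl2b was at 2.18 and 3.96 FPKM with counts of 19 and 26, and its listed length was 1515 and 1062 bases. The other rabl6 gene, ENSDARG00000079046, was at 1.41 and 1.15 FPKM. All 5 count intervals held 1, so no difference was detectable at this depth. The effector eea1, the rab5 tether of early endosomes, had 103 and 112 counts (ratio 0.997, 95% counting interval 0.76 to 1.32) but stood at 8.43 and 4.49 FPKM, as its listed length was 1.87 times as long in the mutant library.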
